A study of Arabidopsis thaliana with 12 samples.

Results

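Averaged over both genotypes, a set of 120 Arabidopsis thaliana genes had a higher signal at 3 h of chilling than at 0 h and at 48 h. They were chosen by 1 measure from 11798 genes that the annotation names only by a locus tag, out of 13350 genes with a probe set of their own. That measure is the log2 signal at 3 h minus the higher of the signals at 0 h and 48 h, each averaged over the 4 arrays of both genotypes, and the 120 largest values were taken. It is called the averaged rise here, and since it chose the genes, its values are given as a description with no test. It ran from 0.71 to 3.01, with a median of 0.98, and 55 genes exceeded 1 and 8 exceeded 2 on the log2 scale. Over all 11798 genes its median was -0.11, and it was above 0 in 2375 of them.

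The 12 arrays hold 6 groups of 2, namely rdm4 and wild type (WT) leaves after 0, 3 and 48 h at 4 °C, from 2 week old seedlings raised on plates at 23/18 °C under a 16 h photoperiod. RDM4 is an RNA polymerase II associated protein of RNA-directed DNA methylation, and the study asks how far it takes part in the response to cold. Labels conflict. Titles call the wild type C24 where the ecotype field has Col. The genotype field of the arrays titled rdm4 mutant names 35S::RDM4, the gene behind a constitutive viral promoter. The free-text descriptions of replicate 2 name other treatments than the titles. Groups follow the titles. Each RNA came from at least 30 seedlings of a plate, and replicates were grown in different chambers. Replicate arrays correlated with r of at least 0.997 over all probe sets.

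Cold is sensed in plants within minutes, through changes in the membrane and a pulse of calcium in the cytosol. A first wave of genes, among them those of transcription factors and signalling proteins, is then switched on for a few hours, and many of these fall again while a slower programme of protective proteins, sugars and membrane lipids builds up. Genes of such a wave also tend to respond to touch, wounding and light, and the circadian clock gates how strongly they answer. Unchilled plants were sampled at 0 h only, so that 3 h of cold cannot be told apart from 3 h of the day. The annotation tables used here give none of the 120 genes a symbol, a product or a worded synonym, and no role is assigned to any of them below.

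Genotype differences at 3 h mostly ran opposite to those called alike at 0 h and 48 h. Between rdm4 and WT, 3094 probe sets were called both at 0 h and at 48 h with 1 and the same sign; 2337 of them were also called at 3 h, and 97% of these (2266) lay in the opposite direction there. Among the 120 genes this held for 20 of 21. Both shares cover only probe sets picked for agreement between 0 h and 48 h. Over all probe sets the genotype differences correlated with r = 0.22 between 0 h and 48 h. The values were -0.61 between 0 h and 3 h and -0.36 between 3 h and 48 h. Whether the 3 h labels were exchanged or the genotype difference changed with time was not tested. Below, rdm4 and WT mean the arrays so labelled. An average over both genotypes at 3 h is the same whichever of the 4 arrays carries which label, whereas every value given for 1 genotype at 3 h rests on the labels. RDM4 itself was not analysed here, and so gives no check of them.

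The top gene, AT1G70420, had log2 signals of 7.63 and 7.63 at 0 h, 11.03 and 11.10 at 3 h, and 7.61 and 7.89 at 48 h in rdm4, against 8.16 and 8.13 at 0 h, 10.71 and 10.74 at 3 h, and 7.87 and 7.86 at 48 h in WT. All 4 arrays at 3 h lay above all 8 others by at least 2.56, and the averaged level at 48 h was 0.08 below that at 0 h. AT3G15440 had 4.00 and 4.00 at 0 h, 7.42 and 7.45 at 3 h, and 3.64 and 3.94 at 48 h in rdm4, against 3.78 and 3.90 at 0 h, 5.29 and 5.94 at 3 h, and 3.89 and 3.70 at 48 h in WT. Its levels at 0 h and 48 h were among the dimmest 30% of probe sets of their groups in both genotypes, so the size of its rise is uncertain. The rdm4 arrays at 3 h both lay above the WT ones. AT5G65300 had 6.42 and 6.60 at 0 h, 9.05 and 9.13 at 3 h, and 6.89 and 7.03 at 48 h in rdm4, against 5.48 and 5.50 at 0 h, 9.35 and 9.13 at 3 h, and 6.24 and 6.13 at 48 h in WT. WT was the lower at 0 h and 48 h, while at 3 h the arrays of the genotypes met at 9.13.

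Next came AT1G20030, at 6.75 and 7.11 at 0 h, 9.90 and 9.90 at 3 h, and 6.56 and 6.75 at 48 h in rdm4, against 6.82 and 6.74 at 0 h, 8.70 and 8.78 at 3 h, and 7.46 and 7.50 at 48 h in WT. AT5G62360, the brightest gene of the set over all arrays, was at 10.84 and 10.85 at 0 h, 13.33 and 13.23 at 3 h, and 10.79 and 10.80 at 48 h in rdm4, against 10.62 and 10.55 at 0 h, 12.64 and 12.65 at 3 h, and 10.58 and 10.69 at 48 h in WT. Its 48 h values were back on those of 0 h, with an averaged difference of 0.00. AT4G13800 was at 6.08 and 5.89 at 0 h, 9.22 and 9.28 at 3 h, and 6.08 and 6.18 at 48 h in rdm4, against 6.28 and 6.56 at 0 h, 7.85 and 7.53 at 3 h, and 6.35 and 6.35 at 48 h in WT. In AT1G20030 and AT4G13800 the rise in rdm4 was the larger, and in neither did the 3 h arrays overlap with the others.

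AT4G16563 stood at 6.19 and 6.47 at 0 h, 8.06 and 8.16 at 3 h, and 6.50 and 6.47 at 48 h in rdm4, against 5.93 and 6.37 at 0 h, 9.01 and 8.95 at 3 h, and 6.31 and 6.47 at 48 h in WT. Its rise was larger in WT. AT1G22570 stood at 7.95 and 7.97 at 0 h, 10.60 and 10.52 at 3 h, and 7.90 and 7.69 at 48 h in rdm4, against 8.03 and 7.94 at 0 h, 9.27 and 9.58 at 3 h, and 7.11 and 7.10 at 48 h in WT. In WT this gene ended below its level at 0 h. AT5G15190 reached nearly the same level at 3 h in both genotypes, with 5.90 and 6.06 at 0 h, 8.76 and 8.76 at 3 h, and 6.43 and 6.82 at 48 h in rdm4, against 6.73 and 6.84 at 0 h, 8.78 and 8.88 at 3 h, and 7.11 and 7.12 at 48 h in WT. AT1G49220 did so too, from a much lower start in WT, with 6.66 and 6.58 at 0 h, 8.22 and 8.39 at 3 h, and 6.80 and 6.96 at 48 h in rdm4, against 4.77 and 5.18 at 0 h, 8.54 and 8.54 at 3 h, and 6.11 and 6.23 at 48 h in WT. The most even of the 12 leading genes was AT5G57150, with 6.71 and 6.80 at 0 h, 8.52 and 8.71 at 3 h, and 6.30 and 6.25 at 48 h in rdm4, against 6.51 and 6.63 at 0 h, 8.29 and 8.42 at 3 h, and 6.58 and 6.54 at 48 h in WT. Its rise was 1.86 in rdm4 and 1.78 in WT. The least even was AT5G05600, with 5.36 and 5.38 at 0 h, 5.72 and 5.69 at 3 h, and 5.25 and 5.03 at 48 h in rdm4, against 5.03 and 4.92 at 0 h, 8.27 and 8.47 at 3 h, and 5.35 and 5.57 at 48 h in WT. The averaged rise of 1.74 was made up of 0.34 in rdm4 and 2.91 in WT.

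**Figure D1:**
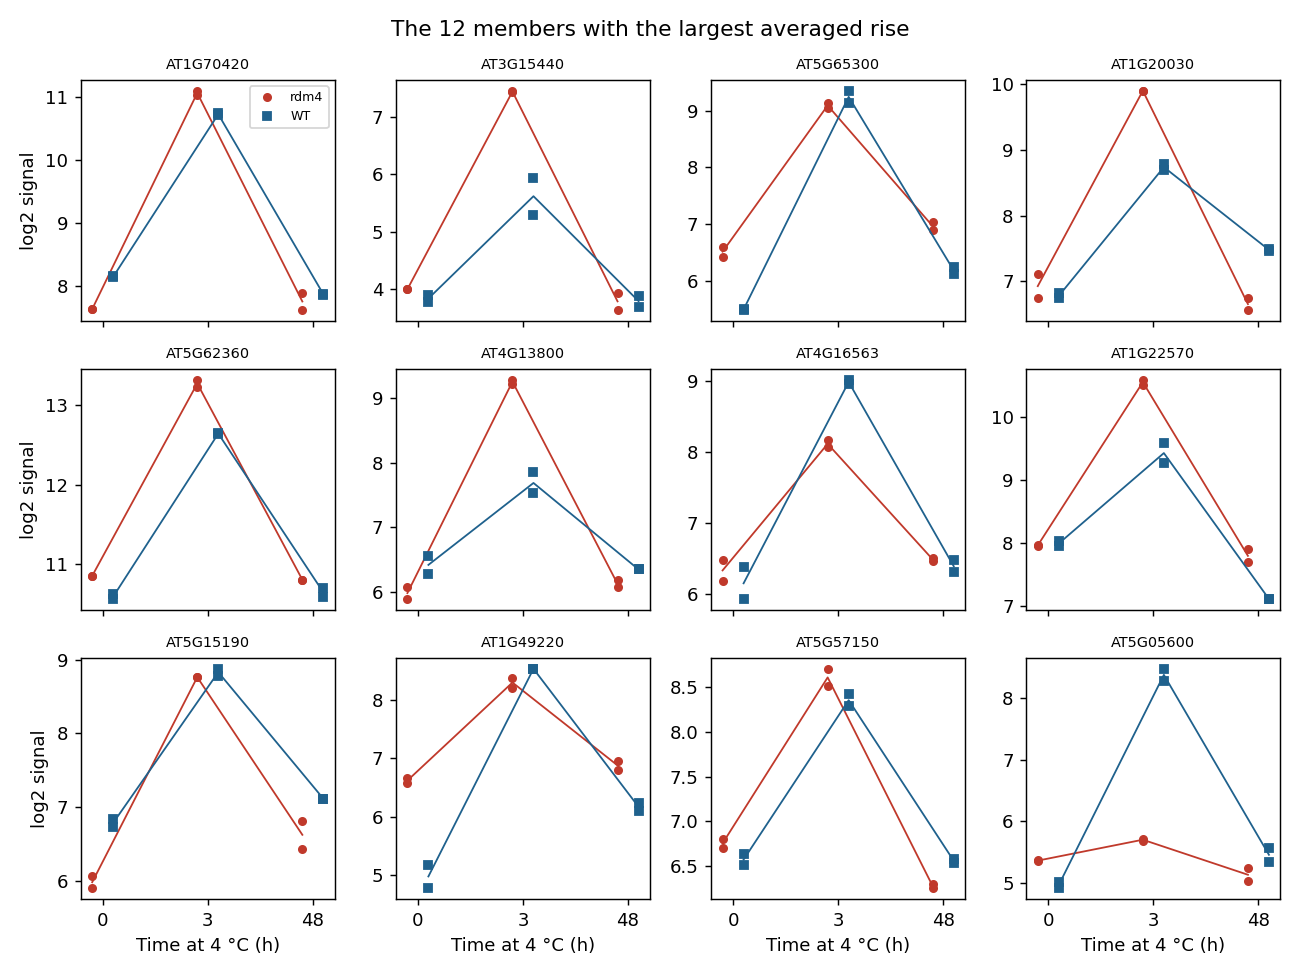
Log2 signal (y axis) at 0, 3 and 48 h at 4 °C (x axis, not to scale) in the 12 genes with the largest averaged rise; circles are rdm4 arrays, squares WT arrays, and lines join the means of 2 arrays. All 12 peak at 3 h in both genotypes, and AT5G05600 rises by only 0.34 in rdm4 against 2.91 in WT.

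The set has no sharp lower edge. AT1G10900, AT1G74450 and AT4G31450, the last genes inside it, had averaged rises of 0.72, 0.71 and 0.71. The first genes left outside, AT5G55050, AT3G11420 and AT5G56880, had 0.71, 0.70 and 0.70. Replicates of the 120 genes differed by a median of 0.10 log2, and the SD of that difference was 0.13 to 0.17 in the 6 groups. The choice of genes moved little with any single array, as 114 to 119 of the 120 stayed in the set when 1 array was left out. It moved far more with the genotype, since 69 would be chosen from the rdm4 arrays alone and 57 from the WT arrays alone.

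Over the whole set the 4 arrays at 3 h lay above the other 8 without overlap in 96 genes, where 2.92% of all tested probe sets do so; the selection made this likely. The median change from 0 h to 3 h, averaged over genotypes, was 1.25, against -0.03 over all probe sets. The genes were brighter than most, with a median level of 7.42 against 6.41 for all probe sets. At 13 of them a level at 0 h was among the dimmest 30% of its group in at least 1 genotype, and at 2, AT5G02580 and AT1G50060, so was the level at 3 h in rdm4. These 2 also had the lowest levels of the set, and the sizes of their changes are uncertain.

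**Figure D2:**
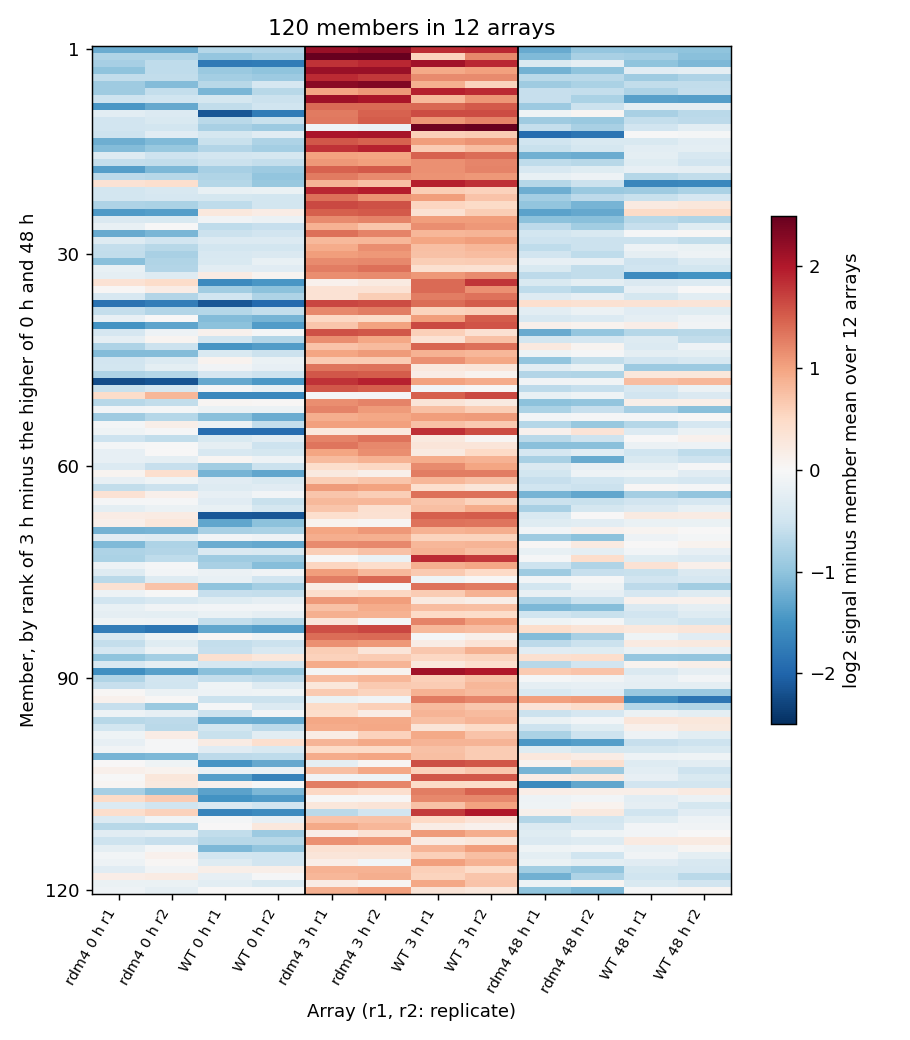
The 120 genes (rows, by averaged rise) in the 12 arrays (columns); colour is log2 signal minus the gene's mean over all arrays. The 4 columns at 3 h are red in most rows, in 96 of them without overlap with the other 8 columns, and below the top rows the red is often deeper in 1 genotype.

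By 48 h the averaged level was within 0.5 log2 of that at 0 h in 75 genes, more than 0.5 above it in 27 and more than 0.5 below it in 18. The median difference was 0.14, against -0.01 over all probe sets. The highest remainders were those of AT4G36010, at 2.29, and AT1G73480, at 2.13. AT4G36010 had 7.77 and 7.87 at 0 h, 11.27 and 11.25 at 3 h, and 10.02 and 9.99 at 48 h in rdm4, against 7.48 and 7.66 at 0 h, 11.00 and 11.12 at 3 h, and 9.97 and 9.93 at 48 h in WT. This gene thus kept most of its 3 h gain, which was 3.47 on average, and it entered the set because 48 h was still 1.18 below 3 h. AT1G73480 had 7.23 and 7.30 at 0 h, 11.26 and 11.36 at 3 h, and 9.36 and 9.36 at 48 h in rdm4, against 8.17 and 8.00 at 0 h, 10.45 and 10.38 at 3 h, and 10.21 and 10.27 at 48 h in WT. The drop after 3 h was 1.95 in rdm4 and 0.18 in WT.

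The largest drops below the starting level were in AT2G47440, at -1.13, and AT2G42190, at -1.07. AT2G47440 had 9.09 and 8.86 at 0 h, 9.43 and 9.34 at 3 h, and 7.56 and 7.42 at 48 h in rdm4, against 8.52 and 8.67 at 0 h, 10.11 and 10.10 at 3 h, and 7.89 and 7.74 at 48 h in WT. AT2G42190 had 8.34 and 8.52 at 0 h, 9.39 and 9.50 at 3 h, and 7.10 and 7.18 at 48 h in rdm4, against 8.75 and 8.97 at 0 h, 9.40 and 9.41 at 3 h, and 7.97 and 8.04 at 48 h in WT. In both genes the arrays at 48 h were the lowest of all, in each genotype. The 27 genes that stayed high had risen further at 3 h, by a median of 1.99 over 0 h, than the 18 that ended low, at 1.00. That order is partly set by the rule, which lets a gene end high only where its 3 h level is higher still.

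**Figure D3:**
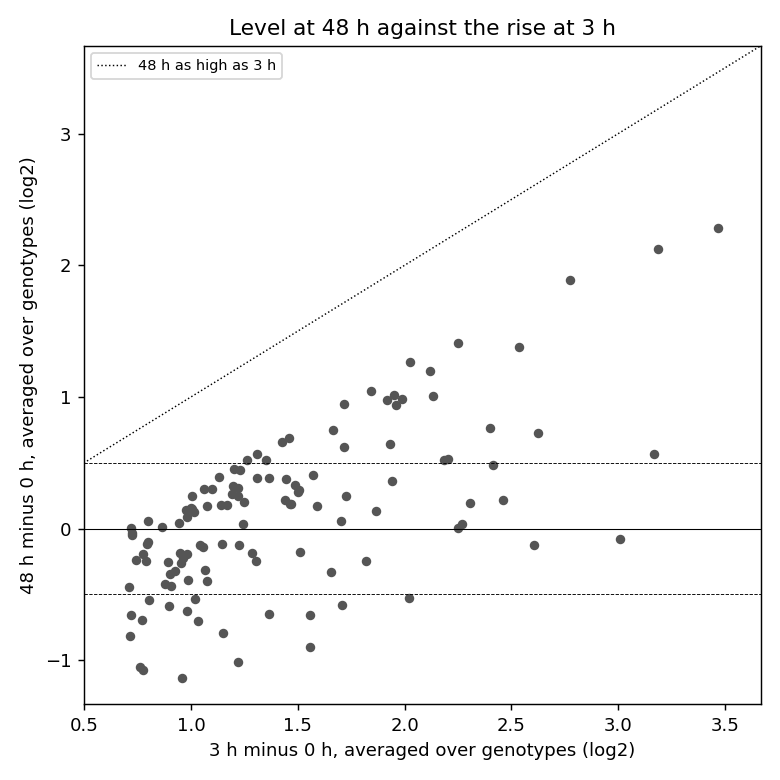
Change from 0 h to 48 h (y axis) against change from 0 h to 3 h (x axis) of the 120 genes, both log2 and averaged over genotypes; the dotted line marks a 48 h level as high as at 3 h and the dashed lines mark 0.5 on either side of no change. Between the dashed lines lie 75 genes, with 27 above and 18 below.

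The averaged rise was next split by genotype, again without a test, as both genotypes entered the rule. The 3 h level stood above the higher of 0 h and 48 h in both genotypes in 107 genes, in WT only in 12 and in rdm4 only in 1. With the 3 h labels exchanged it did so in both in 119 genes and in rdm4 only in 1. The rise was at least 0.5 in both in 68 genes and at least 1 in both in 23. Its median was 1.07 in rdm4 and 1.02 in WT, and it was the larger in rdm4 in 62 genes and in WT in 58. By the smaller of the 2 values, AT1G70420 led with 3.31 in rdm4 and 2.58 in WT, followed by AT5G65300 with 2.13 and 3.06 and AT5G62360 with 2.43 and 2.01. AT5G57150 had 1.86 and 1.78, AT3G15440 3.43 and 1.78, and AT5G15190 2.14 and 1.72, in the same order.

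**Figure D4:**
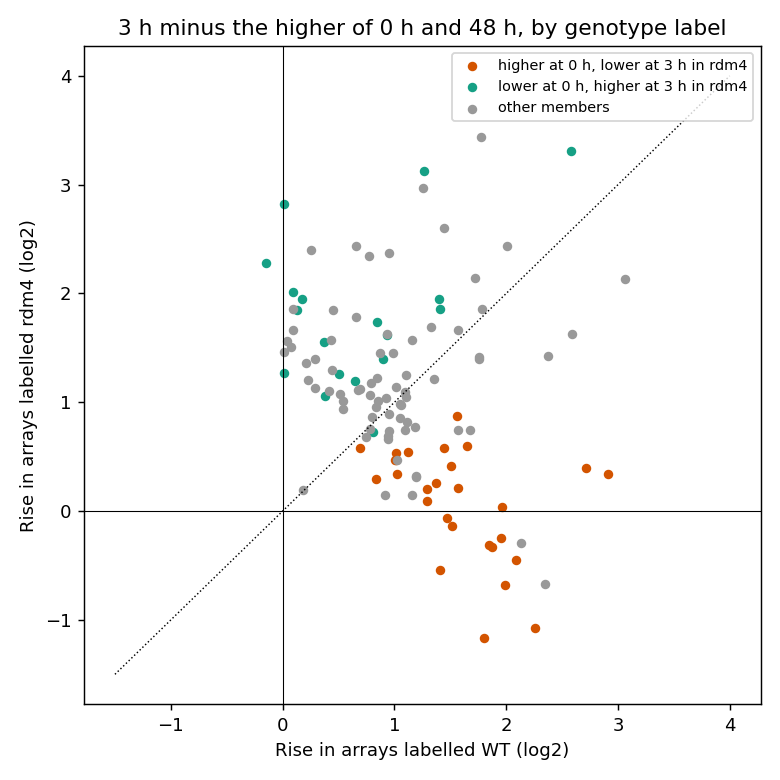
Rise at 3 h over the higher of 0 h and 48 h in rdm4 (y axis) and in WT (x axis), log2, for the 120 genes; the dotted line marks equal rises, and colours mark genes called in opposite directions between the genotypes at 0 h and 3 h. In the lower right lie 12 genes whose 3 h level in rdm4 did not exceed both other times. The upper left holds AT1G51610, with -0.15 in WT.

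Differences between the genotypes within a time, and between their responses, do not enter the averaged rise and were tested across all 22746 probe sets. The averaged rise can still be carried by a single genotype. In 12 genes the 3 h level in rdm4 did not exceed both other times, with a median rise of -0.39 in rdm4 and 1.91 in WT. For such genes a difference at 3 h or between the responses follows from how they entered. The shares of the set called there are no support independent of the choice. At 0 h, 40 of the 120 genes were called higher in rdm4 and 30 lower, where 16.1% of all probe sets were higher and 13.7% lower. In either direction 58.3% of the set was called, against 29.8% of all probe sets, and the median difference was 0.08, against 0.00 over all probe sets. Without the 3 h arrays in the fit the counts were 38 and 28. Calls of at least 2-fold numbered 16 higher and 2 lower, which is 15% of the set against 1.91% of all probe sets. The 12 genes whose rise came from WT alone had a median difference of 1.48 before chilling, higher in rdm4. The shares called before chilling are therefore tied to these members as well. How much of the excess they account for was not tested. The higher signal of the set at all times is a measured difference from other probe sets, and its part in these shares was not tested.

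At 0 h the largest difference was in AT4G30170, with 7.66 and 7.68 at 0 h, 7.90 and 7.85 at 3 h, and 7.08 and 7.47 at 48 h in rdm4, against 5.35 and 5.33 at 0 h, 8.96 and 8.98 at 3 h, and 7.69 and 7.68 at 48 h in WT. It was higher in rdm4 by 2.33 ± 0.10 (adjusted p = 1.37e-08), and lower by 0.40 ± 0.10 at 48 h (adjusted p = 0.0069). AT3G26460 was higher by 2.25 ± 0.11 (adjusted p = 2.54e-08), AT4G11190 by 2.12 ± 0.10 (adjusted p = 3.93e-08) and AT2G18370 by 2.02 ± 0.07 (adjusted p = 3.56e-09). AT5G48490, the second brightest gene over all arrays, had 9.00 and 9.04 at 0 h, 11.91 and 11.94 at 3 h, and 9.07 and 9.13 at 48 h in rdm4, against 10.67 and 10.60 at 0 h, 10.79 and 11.03 at 3 h, and 10.90 and 10.90 at 48 h in WT. The difference at 0 h was -1.61 ± 0.08 (adjusted p = 3.78e-08), so rdm4 was the lower there, the higher at 3 h and the lower again at 48 h, without overlap at any time. AT4G36500 differed at 0 h by -1.28 ± 0.07 (adjusted p = 1.29e-07), AT1G51805 by -0.84 ± 0.09 (adjusted p = 1.59e-05) and AT1G73480 by -0.82 ± 0.07 (adjusted p = 6.19e-06), all lower in rdm4.

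At 3 h, 51 genes were called higher in rdm4 and 42 lower, where 17.6% and 19.1% of all probe sets were. In sum 77.5% of the set was called, against 36.7% of all probe sets, and 16 genes in each direction differed at least 2-fold (26.7% of the set, against 2.63% of all probe sets). AT3G15440 was higher in rdm4 by 1.82 ± 0.16 (adjusted p = 3.69e-06), AT4G13800 by 1.57 ± 0.11 (adjusted p = 6.94e-07), AT4G23000 by 1.54 ± 0.09 (adjusted p = 1.77e-07) and AT2G39920 by 1.43 ± 0.09 (adjusted p = 1.6e-07). AT4G23000 had 5.03 and 5.17 at 0 h, 7.15 and 7.08 at 3 h, and 4.94 and 5.02 at 48 h in rdm4, against 5.55 and 5.42 at 0 h, 5.53 and 5.63 at 3 h, and 5.19 and 5.45 at 48 h in WT. The WT arrays at 3 h overlapped with those at 0 h. On the other side, AT5G05600 was lower in rdm4 at -2.66 ± 0.10 (adjusted p = 4.62e-09) and AT4G11190 at -2.44 ± 0.10 (adjusted p = 1.31e-08). AT5G63130 was at -2.05 ± 0.08 (adjusted p = 1.02e-08) and AT5G02580 at -1.90 ± 0.12 (adjusted p = 2.75e-07).

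AT4G11190 had the largest difference of the 3 h responses, described further on, with 6.94 and 7.06 at 0 h, 5.83 and 6.02 at 3 h, and 6.62 and 6.74 at 48 h in rdm4, against 4.85 and 4.92 at 0 h, 8.24 and 8.49 at 3 h, and 6.01 and 6.22 at 48 h in WT. In rdm4 the 3 h arrays were the lowest of the 3 times, whereas in WT they were the highest, so that the averaged rise of 0.75 joins -1.08 in rdm4 and 2.26 in WT. AT5G63130 had 5.26 and 5.43 at 0 h, 6.74 and 6.86 at 3 h, and 7.44 and 7.50 at 48 h in rdm4, against 5.75 and 5.85 at 0 h, 8.90 and 8.81 at 3 h, and 6.43 and 6.58 at 48 h in WT. In rdm4 this gene was higher still at 48 h. AT5G02580, at dim levels in 5 of the 6 groups, had 3.64 and 3.79 at 0 h, 4.42 and 4.27 at 3 h, and 4.40 and 4.87 at 48 h in rdm4, against 3.55 and 3.54 at 0 h, 6.29 and 6.20 at 3 h, and 4.14 and 4.09 at 48 h in WT.

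At 48 h, 24 genes were called higher in rdm4 and 47 lower, where 16% and 19% of all probe sets were. The median difference was -0.13, against -0.0033 over all probe sets. Without the 3 h arrays the counts were 24 and 47 as well. AT3G51450 was higher in rdm4 by 2.76 ± 0.08 (adjusted p = 3e-10), from 8.37 and 8.29 at 0 h, 8.09 and 8.17 at 3 h, and 9.28 and 9.31 at 48 h in rdm4, against 7.71 and 7.71 at 0 h, 9.55 and 9.46 at 3 h, and 6.66 and 6.42 at 48 h in WT. The signal of this gene at 48 h was the highest of the 3 times in rdm4 and the lowest in WT. AT4G36500 was higher by 1.39 ± 0.07 (adjusted p = 2.59e-08), AT1G07135 by 1.12 ± 0.12 (adjusted p = 1.61e-05) and AT1G62510 by 1.00 ± 0.09 (adjusted p = 4.03e-06). AT2G39920 was lower in rdm4, at -1.84 ± 0.09 (adjusted p = 9.05e-09), AT5G48490 at -1.79 ± 0.08 (adjusted p = 6.1e-09), AT5G02180 at -1.33 ± 0.08 (adjusted p = 1.17e-07) and AT1G71710 at -1.16 ± 0.07 (adjusted p = 5.57e-08).

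AT4G36500 differed by 0.08 ± 0.07 at 3 h (adjusted p = 0.447) after different courses, with 7.88 and 8.03 at 0 h, 9.47 and 9.53 at 3 h, and 9.29 and 9.33 at 48 h in rdm4, against 9.30 and 9.17 at 0 h, 9.40 and 9.44 at 3 h, and 7.92 and 7.90 at 48 h in WT. In rdm4 it was low at 0 h only, and in WT it was low at 48 h only. AT2G39920 had 7.70 and 7.93 at 0 h, 10.24 and 10.27 at 3 h, and 6.29 and 6.38 at 48 h in rdm4, against 7.77 and 7.93 at 0 h, 8.81 and 8.84 at 3 h, and 8.19 and 8.16 at 48 h in WT. It ended below its start in rdm4 and above it in WT. AT1G71710 had 7.28 and 7.36 at 0 h, 9.13 and 9.20 at 3 h, and 6.94 and 6.98 at 48 h in rdm4, against 8.02 and 8.00 at 0 h, 8.29 and 8.20 at 3 h, and 8.12 and 8.11 at 48 h in WT. The rise was 1.85 in rdm4 and 0.13 in WT.

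The test of the responses themselves asked whether the change from 0 h to 3 h differed between rdm4 and WT. It was called larger in rdm4 in 50 genes and smaller in 46, where 20.8% and 22.4% of all probe sets were (43.2% in either direction). For the difference between 3 h and 48 h, 57 genes were called larger in rdm4 and 37 smaller, where 21.3% and 21.2% of all probe sets were. The comparisons share the 3 h arrays, so that their calls are not independent. With the genotype labels of the 3 h arrays exchanged, an alternative added after the data were seen, the 3 h response was larger in rdm4 in 21 genes and smaller in 43 (6.22% and 5.28% of all probe sets), and the step between 3 h and 48 h was larger in 43 and smaller in 31 (14.2% and 11.2%). With the labels as given, the largest differences of the 3 h responses were 2.63 ± 0.11 (adjusted p = 5.79e-09) in AT5G48490 and 2.00 ± 0.16 (adjusted p = 9.25e-07) in AT4G13800 on the side of rdm4. On the side of WT they were -4.56 ± 0.15 (adjusted p = 6.11e-10) in AT4G11190 and -3.86 ± 0.15 (adjusted p = 2.55e-09) in AT3G26460. With the 3 h labels exchanged these values were 0.60 in AT5G48490, -1.13 in AT4G13800, 0.32 in AT4G11190 and -0.65 in AT3G26460. The ranking and the sizes thus depend on the labels.

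In 12 genes (10%, against 46.2% of all probe sets) neither difference of the responses was called. Among them AT4G36010 differed between the genotypes by -0.05 ± 0.11 (adjusted p = 0.773) in the 3 h response and by 0.15 ± 0.11 (adjusted p = 0.312) in the step between 3 h and 48 h. A missed call does not show that the responses were alike. AT1G68490, AT1G10140, AT4G09500 and AT4G16610 were called at none of the 3 times between the genotypes. For all probe sets that share was not computed, so the count is not read as a trait of the set. The genes are named here after their values were seen. The 3 h response was nevertheless called smaller in rdm4 in AT1G68490, with a difference of -0.29 ± 0.10 (adjusted p = 0.0312), and in AT4G09500, with -0.53 ± 0.16 (adjusted p = 0.02). Their rises ran from 0.74 to 0.86 in rdm4 and from 0.80 to 1.11 in WT.

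By the calls at 0 h and 3 h, the genes fell into a few courses. In 28 genes rdm4 was called higher at 0 h and lower at 3 h, and in 18 lower at 0 h and higher at 3 h. These are 23.3% and 15% of the set, where 11% and 8.02% of all probe sets had these courses. Across all probe sets the differences at 0 h and 3 h correlated with r = -0.61, against -0.62 across the 120 genes, as a description of arrays that share their labels. In 7 genes (5.83%, against 1.49% of all probe sets) the direction was the same at both times, and 67 were not called at 1 of these times at least. The median level of the 28 genes was 6.48 in rdm4 and 5.31 in WT at 0 h, 6.69 and 7.74 at 3 h, and 6.15 and 6.08 at 48 h. Their median rise was 0.24 in rdm4 and 1.51 in WT. At 48 h, which did not enter the grouping, 16% of all probe sets were called higher in rdm4 and 19% lower. Of the 28 genes, 9 were called higher then, 7 lower and 12 neither. Besides genes already described, AT3G20370 belongs here, with 8.75 and 8.84 at 0 h, 8.48 and 8.61 at 3 h, and 7.99 and 8.13 at 48 h in rdm4, against 6.79 and 6.92 at 0 h, 9.79 and 10.17 at 3 h, and 8.02 and 8.03 at 48 h in WT. So does AT1G62510, with 6.99 and 7.04 at 0 h, 7.48 and 7.35 at 3 h, and 5.90 and 6.09 at 48 h in rdm4, against 5.90 and 5.68 at 0 h, 8.56 and 8.45 at 3 h, and 4.99 and 5.02 at 48 h in WT. This gene was again higher in rdm4 at 48 h.

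The 18 genes of the reverse course had a median of 7.29 in rdm4 and 7.98 in WT at 0 h, 9.77 and 9.12 at 3 h, and 8.01 and 8.11 at 48 h. At 48 h 11 of them were called lower in rdm4, as at 0 h, 1 higher and 6 neither, where 19% of all probe sets were lower and 16% higher. AT1G51610 is the only gene of the set whose 3 h level in WT, as labelled, did not exceed both other times. It was at 8.89 and 8.95 at 0 h, 11.21 and 11.18 at 3 h, and 8.94 and 8.91 at 48 h in rdm4, against 9.24 and 9.16 at 0 h, 9.85 and 9.76 at 3 h, and 9.96 and 9.95 at 48 h in WT. In WT its signal rose from 0 h to 3 h and was higher still at 48 h. With the 3 h labels exchanged its rise would be 0.88 in rdm4 and 1.24 in WT. AT5G02180 was not called at 0 h (-0.23 ± 0.08 (adjusted p = 0.0521)), higher in rdm4 at 3 h and lower at 48 h, with 6.83 and 6.81 at 0 h, 9.25 and 9.19 at 3 h, and 6.61 and 6.42 at 48 h in rdm4, against 6.96 and 7.13 at 0 h, 8.14 and 8.06 at 3 h, and 7.81 and 7.88 at 48 h in WT.

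**Figure D5:**
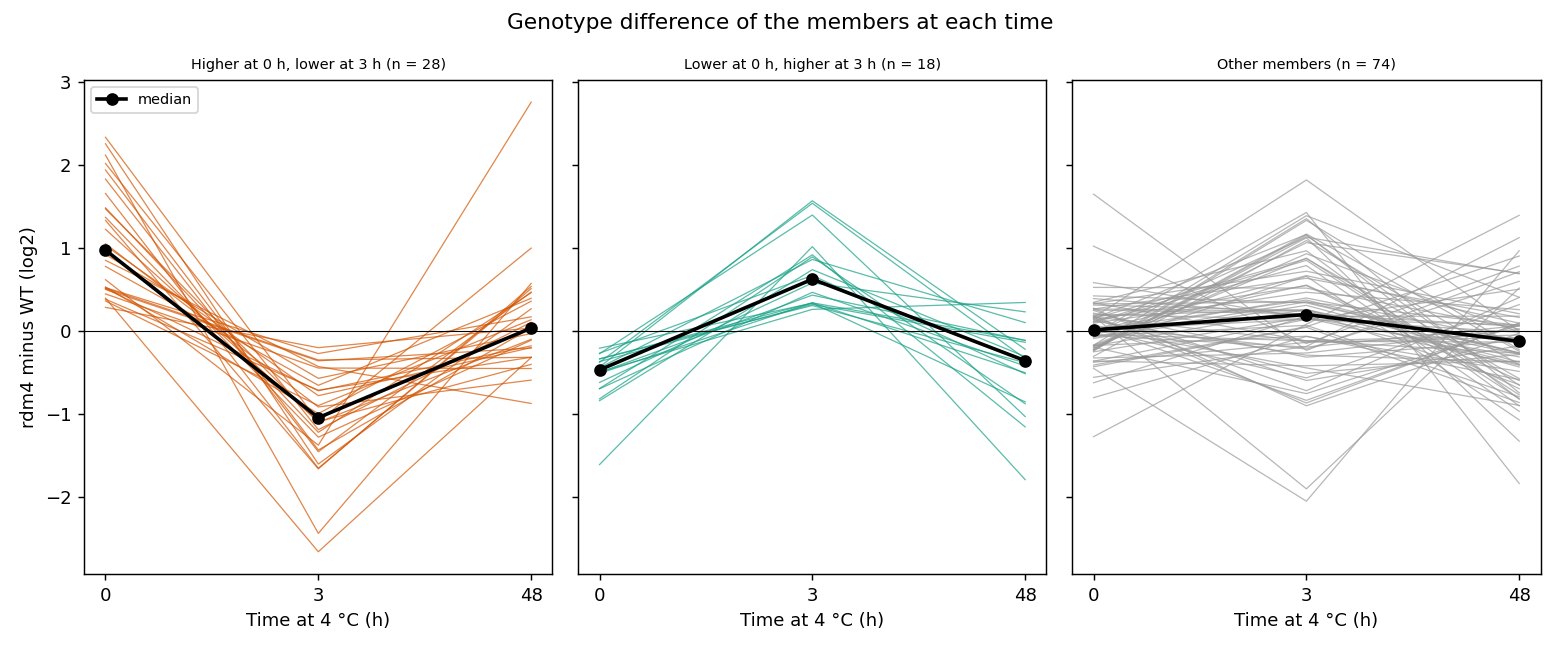
Difference between rdm4 and WT (y axis, log2) at 0, 3 and 48 h (x axis, not to scale) of the 120 genes in 3 panels by their calls at 0 h and 3 h, which set the shape of the left and middle panels up to 3 h; thin lines are genes and the black line is their median. The median at 48 h is 0.03 in the left panel (28 genes) and -0.36 in the middle panel (18 genes).

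Levels of genes from other tissue were set beside these courses. The leaf genes RCA (Rubisco activase), LHCB4.1 and LHCB4.2 (light harvesting proteins) had log2 signals of 10.50 or more in all groups, with RCA at 13.89, 13.96 and 13.69 in rdm4 and 13.95, 13.92 and 13.73 in WT at 0, 3 and 48 h. These were the 3 of 8 leaf markers that the annotation named. LHCB4.2 moved more, at 12.27, 12.83 and 10.50 in rdm4 and 12.41, 12.38 and 11.31 in WT. Between the genotypes it differed by 0.44 at 3 h (adjusted p = 0.000273) and by -0.80 at 48 h (adjusted p = 2.15e-06). Averaged over genotypes it was called higher at 3 h than at 0 h, by 0.26, and the other 2 were not called. Of 7 root markers 4 were named by the annotation, and none is in the set. PYK10, a root beta-glucosidase, was at 11.92, 11.86 and 11.57 in rdm4 and at 10.60, 12.50 and 11.62 in WT. AT5G17820 was at 6.53, 6.49 and 7.15 in rdm4 and at 4.75, 8.03 and 7.05 in WT. EXPA7 and GH9C1, wall genes of root hairs, lay between 4.29 and 5.33 throughout. Both were among the dimmest 30% in WT at 0 h and in rdm4 at 0 h and 3 h, and EXPA7 also in WT at 48 h. The sizes of their changes are uncertain. The summed signal of the 4 was 11.97, 11.91 and 11.67 (log2) in rdm4 and 10.67, 12.58 and 11.70 in WT, and most of it is PYK10. Of the 4, 3 were called higher in rdm4 at 0 h and all 4 lower at 3 h, the course of the 28 genes above. Averaged over genotypes, all 4 were also called higher at 3 h than at 0 h, by 0.91 in PYK10, 1.62 in AT5G17820, 0.30 in EXPA7 and 0.53 in GH9C1. Their part in either course was not tested. Of the 2 pollen genes named, AT5G07430 was among the dimmest 30% in all groups, at 3.89 to 4.06, and AT3G01270 lay above that limit, at 5.02 to 5.18.

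Few regulators of the early cold response are named by the annotation used here, and none of those listed is in the set. Averaged over genotypes at 3 h, 19% of all probe sets were called higher and 23.5% lower. The zinc finger factor STZ, an early cold and stress gene and the only one named of 18 early cold regulators, rose by 1.65 ± 0.05 (adjusted p = 3.55e-11). It was at 7.09, 9.51 and 10.12 in rdm4, with no drop after 3 h, and at 9.13, 10.01 and 7.89 in WT. GI, the only one named of 16 clock genes, rose by 0.92 ± 0.05 (adjusted p = 6.69e-09). Of 4 named genes of the touch and calcium list, CML38, a calmodulin-like protein gene, rose by 0.65 ± 0.08 and CML23, another, fell by 0.32 ± 0.06, and CML37 and AT1G76640 were not called. From 0 h to 3 h CML38 went from 4.41 to 4.61 in rdm4 and from 4.88 to 5.97 in WT. CML23 went from 5.10 to 4.43 in rdm4 and from 5.13 to 5.16 in WT. In rdm4, CML38 at 0 h and 3 h and CML23 at 3 h were among the dimmest 30%. The jasmonate, heat shock and ABA phosphatase lists had no gene named.

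The genes of the set are spread over the 5 chromosomes, with 41, 15, 16, 19 and 29 on chromosomes 1 to 5. On chromosomes 1 to 5 lay 34.2%, 12.5%, 13.3%, 15.8% and 24.2% of them, against 25.9%, 16.4%, 20.4%, 14.4% and 22.6% of the 11798 genes. The median gene length in the RefSeq table (TAIR10.1) was 1819 bases, against 2081 bases for those with a length, and 35.8% against 29.2% were under 1500 bases. Among protein-coding genes 2 pairs were direct neighbours, AT1G52060 with AT1G52070 and AT1G68490 with AT1G68500, and 8 pairs lay within 5 genes of each other. How many such pairs a random set would hold was not computed. AT1G52060 and AT1G52070 had rises of 0.21 and 0.04 in rdm4 against 1.57 and 1.97 in WT. AT1G68490 and AT1G68500 had 0.82 and 1.01 in rdm4 and 1.11 and 0.85 in WT, and their 3 h responses were called in opposite directions, smaller in rdm4 in AT1G68490 and larger in AT1G68500. These pairs were picked for their position, and AT1G52070 was dim in WT at 0 h.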

How the data were processed

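Leaf RNA was measured on Affymetrix ATH1 arrays, 2 per group. Array medians of 6.33 to 6.43 and the range of the deposited values place them on a log2 scale; per the labels, biotin-labelled cRNA was hybridised, and the authors' summarisation and normalization are not given in the sources used here. All log2 values were used as deposited. Of 22810 probe sets, 64 controls were left out and 22746 tested. The annotation paired 13513 with 1 gene and 503 with several, and 8730 stay unnamed here. Symbols came from a RefSeq table, which matched all 120 genes, and 1 probe set stood for a gene. The probe set of AT1G34570 may read more than 1 transcript.

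All 12 arrays were fitted as 6 group means with limma 3.58.1 in R 4.3.3 (lmFit, eBayes; residual degrees of freedom 6, prior 5.97), tested on simulated data. P-values were adjusted by Benjamini-Hochberg over all probe sets, with calls made below 0.05. Differences are log2 ± SE, rdm4 minus WT. The number of arrays limits the precision. Where a level lies in the lowest 30% of its group, the size of a change is uncertain. Replicate numbers are not said to mark a shared chamber between groups.

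The genes, lists and tests were chosen with earlier results of these data known. Named genes are the 12 largest averaged rises, up to 4 called differences in each direction of each genotype comparison, the genes next to the threshold, the 6 largest by the smaller of the genotypes' rises, and the extremes of level and of the 48 h change; others are marked where named. Promoter motifs and product families were not analysed here.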

Additional observations from a re-analysis of the deposited data

Results flagged for a closer look

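The genes below are given because the response to chilling differed between rdm4 and WT by the test of that difference, adjusted over all probe sets. All of these values rest on the genotype labels of the 3 h arrays, and each is followed by its value with those labels exchanged. As labelled, AT4G11190, AT3G26460, AT3G20370, AT3G51450, AT5G63130 and AT5G02580 did not exceed both other times at 3 h in rdm4, and AT1G51610 did not in WT. For these genes a difference between the responses follows from how they entered the set, so their calls are no independent support. The change from 0 h to 3 h was larger in rdm4 in 50 of the 120 genes and smaller in 46, and with the labels exchanged in 21 and 43. Of all probe sets, 20.8% and 22.4% were so called, and 6.22% and 5.28% with the labels exchanged. The difference, rdm4 minus WT, was 2.63 in AT5G48490, 2.00 in AT4G13800, 1.92 in AT4G23000 and 1.71 in AT1G73480. Exchanged, these are 0.60, -1.13, -1.16 and -0.072. On the other side it was -4.56 in AT4G11190, -3.86 in AT3G26460, -3.43 in AT4G30170 and -3.37 in AT3G20370. Exchanged, these are 0.32, -0.65, -1.24 and -0.50.

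The difference between 3 h and 48 h was larger in rdm4 in 57 genes and smaller in 37, and with the labels exchanged in 43 and 31. Of all probe sets, 21.3% and 21.2% were so called, and 14.2% and 11.2% with the labels exchanged. The value, rdm4 minus WT, was 3.27 in AT2G39920, 2.81 in AT5G48490, 2.45 in AT5G02180 and 2.43 in AT1G51610. Exchanged, these are 0.41, 0.78, 0.21 and -0.36. It was -4.13 in AT3G51450, -3.02 in AT5G63130, -3.01 in AT4G11190 and -2.42 in AT5G02580, where the last has dim levels. Exchanged, these are -1.38, 1.09, 1.87 and 1.39. Groups of 2 arrays are too small to look for single arrays that stand apart.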

How the results depend on the processing

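Counts of called genes in the 5 genotype comparisons stayed within 1.5 times under these alternatives: repeated quantile normalization, centring on the median, leaving out the dimmest 30% of probe sets (2 of the 120 genes among them), trend and robust estimation, the compared arrays alone, and leaving out each array. Without 1 array, when the lone array of a group is assumed to vary like the other groups, the higher and lower counts ran from 31 to 41 and 24 to 32 at 0 h, 43 to 52 and 35 to 42 at 3 h, and 18 to 25 and 37 to 48 at 48 h. All 40 named genotype differences kept their direction in all 734 pairs of a difference and an alternative. These pairs also include a fit with replicate number as a block and a fit without the 3 h arrays. The 40 were picked as the largest called differences, which made this likely.

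Exchanging the genotype labels of the 3 h arrays, added after the data were seen, changed more. The genes whose 3 h response was called larger in rdm4 fell to 21, against 50 as labelled. Over all probe sets that share fell from 20.8% to 6.22%. By construction the 3 h differences turned sign, to -1.82 in AT3G15440, -1.57 in AT4G13800, -1.54 in AT4G23000, -1.43 in AT2G39920, 2.66 in AT5G05600, 2.44 in AT4G11190, 2.05 in AT5G63130 and 1.90 in AT5G02580. The 3 h response also turned, to -1.13 in AT4G13800, -1.16 in AT4G23000, -0.072 in AT1G73480 and 0.32 in AT4G11190, and the difference between 3 h and 48 h to -0.36 in AT1G51610, 1.09 in AT5G63130, 1.87 in AT4G11190 and 1.39 in AT5G02580.

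Membership moved with the genotype, to 69 of 120 genes from the rdm4 arrays alone and 57 from the WT arrays alone; under the other alternatives above it was 114 to 120. Genes with a rise above 0 in both genotypes numbered 103 to 108, and 119 with the 3 h labels exchanged.

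With replicate number as a block, 40 genes were higher and 31 lower in rdm4 at 0 h, 51 and 42 at 3 h, and 25 and 47 at 48 h. For the 3 h responses the block gave 51 and 46, and for the step between 3 h and 48 h 58 and 37. Deviations of same-numbered arrays correlated with r from -0.15 to 0.17. With 2 arrays per group, these values cannot show whether the numbers pair the samples.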
